A study of Mus musculus with 20 samples.

Results

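The transcriptional response of ear endothelium to the contact allergen dinitrofluorobenzene (DNFB) was measured in control mice, as 6 arrays of endothelial cells from DNFB-treated ears against 6 arrays from vehicle-treated ears. These 12 of the 20 arrays of the series were chosen by their sample titles (control mouse, replicates 1 to 6 of each treatment), and the arrays of mice that overexpress active Notch1 in endothelium were not used. Per the labels, mice received 5 tamoxifen injections, one each day, and DNFB was painted on the skin on days 0 and 1 and, as a challenge on day 5, on the ear. Ears were taken 24 hours after it and digested with collagenase I, CD31+CD45-Ter119- cells were sorted straight into lysis buffer, and amplification with the WT Pico kit started from 1 ng of RNA. The genotype of both groups is given as control and nothing more. Whether control mice carried the CDH5-iCre driver or the RosaNICD allele, their strain, sex and age, what the vehicle was, whether vehicle ears came from sensitised mice or from the other ear of a DNFB mouse, and whether ears were pooled are not given in the sources used here. Nothing in the labels says that replicates are separate mice, so p-values measure the spread between these samples, which may be technical.

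In contact hypersensitivity a small reactive chemical binds skin proteins and is recognised by T cells primed at first exposure, so that a later application draws leukocytes into the skin. The endothelium of the skin controls that entry: it displays chemokines and adhesion molecules, loosens its junctions, changes the tone and clotting properties of the vessel, and remodels its matrix. Resting capillary endothelium is specialised for exchange, with caveolae, water channels, fatty acid carriers and a set of transcription factors that hold its identity. DNFB is also an electrophile that reacts with thiols, and cells answer such chemicals through the transcription factor NRF2.

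Values are deposited log2 robust multi-array average (RMA) levels, on which a difference of 1 is a 2-fold change. Every level below is given as the lowest, median and highest of the 6 arrays of a group. Differences are DNFB minus vehicle ± 1 SE from limma, with p adjusted over all 23521 probe sets that carry 1 gene symbol, and "rose" and "fell" are used only where adjusted p was under 0.05. Genes not expressed in skin set the background: the 95th percentile of 1435 odorant, pheromone and taste receptor probe sets was 3.95 in vehicle and 3.90 in DNFB arrays. A gene whose mean is under that limit in one group has only a bound there. Among the genes named below this holds for the vehicle means of Cxcl11, Il11, Il1a, Lif, Tnfrsf9, Mmp10, Has1, Tfpi2, Inhba, Krt6a, Krt16, S100a8, Gzmb and Ocln and for the DNFB mean of Cyp1a1, besides those described as at background.

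The sorted cells carried endothelial transcripts in every array. Cdh5, the junctional VE-cadherin, stood at 11.60, 11.76 and 11.92 in vehicle and 11.65, 11.97 and 12.08 in DNFB arrays, and it was not called (difference 0.16 ± 0.11; adjusted p = 0.32). Pecam1, which encodes the CD31 used for the sort, stood at 11.65, 11.71 and 11.79 in vehicle and 11.37, 11.49 and 11.65 in DNFB arrays, with a difference of -0.21 ± 0.09 (adjusted p = 0.0986), not called although no DNFB value lay above a vehicle value. Ptprc, which encodes the CD45 used to exclude leukocytes, stood at 3.47, 3.90 and 4.08 in vehicle and 4.26, 4.90 and 6.14 in DNFB arrays and rose by 1.21 ± 0.24 (adjusted p = 0.00155) from a mean at background, so a leukocyte transcript was higher after DNFB; marker levels of other cell types are given with the last results. Transcripts known from other cells were high in vehicle arrays as well. The pericyte marker Rgs5 stood at 11.07 to 11.31 in vehicle arrays. Krt14 of keratinocytes stood there at 10.60 to 11.46 and Dcn of fibroblasts at 9.60 to 10.56. In these bulk samples, fewer cells of a type and less RNA per cell cannot be told apart.

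All 6 DNFB arrays separated from all 6 vehicle arrays on the first principal component, which held 45.8% of the variance against 9.07% for the second. The correlation between arrays ran from 0.973 to 0.982 within vehicle, from 0.965 to 0.979 within DNFB and from 0.932 to 0.954 between treatments. Array medians of the deposited values lay between 3.87 and 3.98. RMA as a rule brings arrays to a common scale, so these medians cannot show whether total signal differed by treatment. With 6 arrays a group, a simulated difference of 1 was recovered in 73.1% of cases and one of 0.5 in 19.4%. The simulated data held far fewer changed probe sets than were called here. Adjusted p depends on the share of probe sets that changed, so these rates do not measure recovery in the present data.

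DNFB changed a large share of the measured transcriptome, in both directions. Of 23521 probe sets, 3155 (13.4%) rose and 3111 (13.2%) fell, and the median difference over all of them was 0.00739. The balance of both directions is that of RMA values and not of total RNA. In 2062 probe sets (8.77%) all DNFB values lay above all vehicle values, and in 1983 (8.43%) all lay below. The directions differed in the largest changes: 826 (3.51%) rose and 865 (3.68%) fell at least 2-fold, 146 and 62 at least 4-fold, 45 and 3 at least 8-fold, and 17 and 0 at least 16-fold. Of the probe sets that rose, 437 started at background, and of those that fell, 289 ended there.

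**Figure D1:**
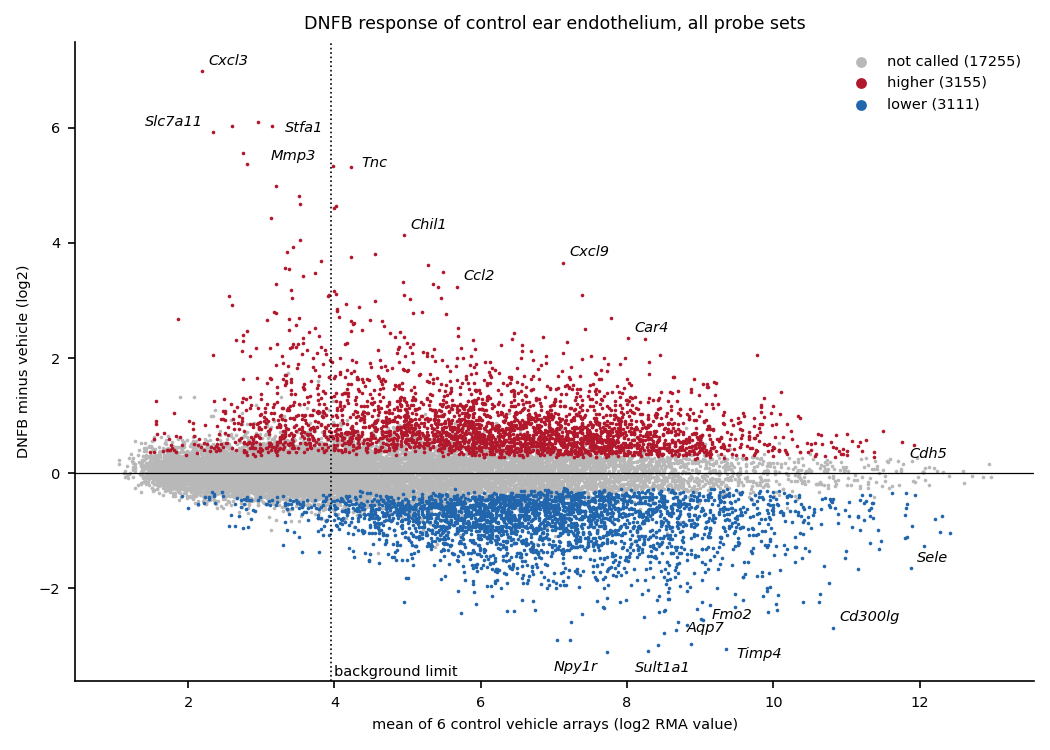
Each point is 1 probe set, with its mean over the 6 control vehicle arrays on the x axis (log2 RMA value) and the DNFB minus vehicle difference on the y axis (log2). The 3155 probe sets that rose are red, the 3111 that fell are blue, the rest grey, and the dotted line is the vehicle background limit of 3.95. The largest rises start near or below that line, whereas the largest falls, none of them beyond 4 log2 units, start from well above it.

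Over the probe sets changed at least 2-fold, the median change was of similar size in each DNFB array. These probe sets were chosen on the same arrays, which favours such agreement. Over the probe sets that rose at least 2-fold, the median rise above the vehicle mean was 1.22 in replicate 3, the smallest, and 1.54 in replicate 5, the largest. Over those that fell at least 2-fold, the median change ran from -1.22 in replicate 3 to -1.42 in replicate 5. Among 12707 probe sets above background in both groups, the median SD between arrays was 0.22 in vehicle and 0.25 in DNFB.

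The highest-ranked rises combined matrix enzymes, chemokines and barrier genes. Mmp3, stromelysin, stood at 3.22, 3.77 and 5.24 in vehicle and 8.50, 9.57 and 9.89 in DNFB arrays, and rose by 5.34 ± 0.36 (adjusted p = 1.52e-07). Tnc, the injury matrix protein tenascin-C, stood at 3.56, 4.22 and 4.97 in vehicle and 9.15, 9.56 and 9.81 in DNFB arrays, and rose by 5.32 ± 0.22 (adjusted p = 4.79e-09). No DNFB array came near the vehicle range for either gene. Chil1, a chitinase-like lectin, rose by 4.13 ± 0.28 (adjusted p = 1.42e-07), Apln, the ligand of the apelin receptor and a gene of sprouting endothelium, by 3.33 ± 0.24 (adjusted p = 2.30e-07), and Olr1, the receptor for oxidised LDL, by 3.12 ± 0.47 (adjusted p = 1.43e-04). Clec4e, a pattern recognition lectin of myeloid cells, rose by 3.17 ± 0.32 (adjusted p = 3.91e-06). Among genes that started at background, the protease inhibitors of the stefin family Stfa1, Csta3 and Stfa3 rose to DNFB means of 9.19, 9.05 and 8.19, which are 5.24, 5.10 and 4.24 above the background limit. The antimicrobial peptide gene Defb14 rose to 8.32, 4.37 above that limit.

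The highest-ranked falls came from several gene classes. Npy1r, a neuropeptide Y receptor, stood at 7.49, 7.68 and 8.27 in vehicle and 4.31, 4.51 and 4.97 in DNFB arrays and fell by 3.11 ± 0.15 (adjusted p = 2.30e-08). Timp4, an inhibitor of metalloproteinases, stood at 8.88, 9.24 and 9.96 in vehicle and 5.75, 6.22 and 6.73 in DNFB arrays and fell by 3.06 ± 0.20 (adjusted p = 1.16e-07). Npr3, the clearance receptor for natriuretic peptides, stood at 7.11, 7.20 and 7.35 in vehicle and 3.69, 4.50 and 4.71 in DNFB arrays and fell by 2.89 ± 0.16 (adjusted p = 3.35e-08). In all of these the highest DNFB array lay below the lowest vehicle array. The phase II enzyme Sult1a1 fell by 3.09 ± 0.27 (adjusted p = 9.81e-07), the capillary mucin Cd300lg fell by 2.68 ± 0.18 (adjusted p = 1.52e-07), C1qtnf9 fell by 2.99 ± 0.15 (adjusted p = 2.47e-08), the soluble guanylate cyclase subunit Gucy1a1 fell by 2.64 ± 0.19 (adjusted p = 2.24e-07), and Depp1, a target of FOXO factors, fell by 2.77 ± 0.34 (adjusted p = 2.44e-05). Thrsp fell by 2.59 ± 0.26 (adjusted p = 3.56e-06), Chp2 fell by 2.58 ± 0.25 (adjusted p = 2.97e-06) and Fhl5 fell by 2.55 ± 0.26 (adjusted p = 3.65e-06). Some genes reached background in DNFB ears: Tril, a Toll-like receptor accessory gene, fell from a vehicle mean of 5.73 to 3.32, and P2ry14, a receptor for UDP-glucose, from 5.10 to 3.83.

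Read by gene list, the machinery that makes, folds and degrades protein rose with few exceptions. Each list can be set against the share of all 22180 genes that was called, 13.6% higher and 13.5% lower, or 21.7% and 21.9% of the 13255 genes above background in at least 1 group. These shares are given for description, and no test of a list was made. The lists were chosen with earlier results of these data known, so shares above those of all genes are partly built in.

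**Figure D2:**
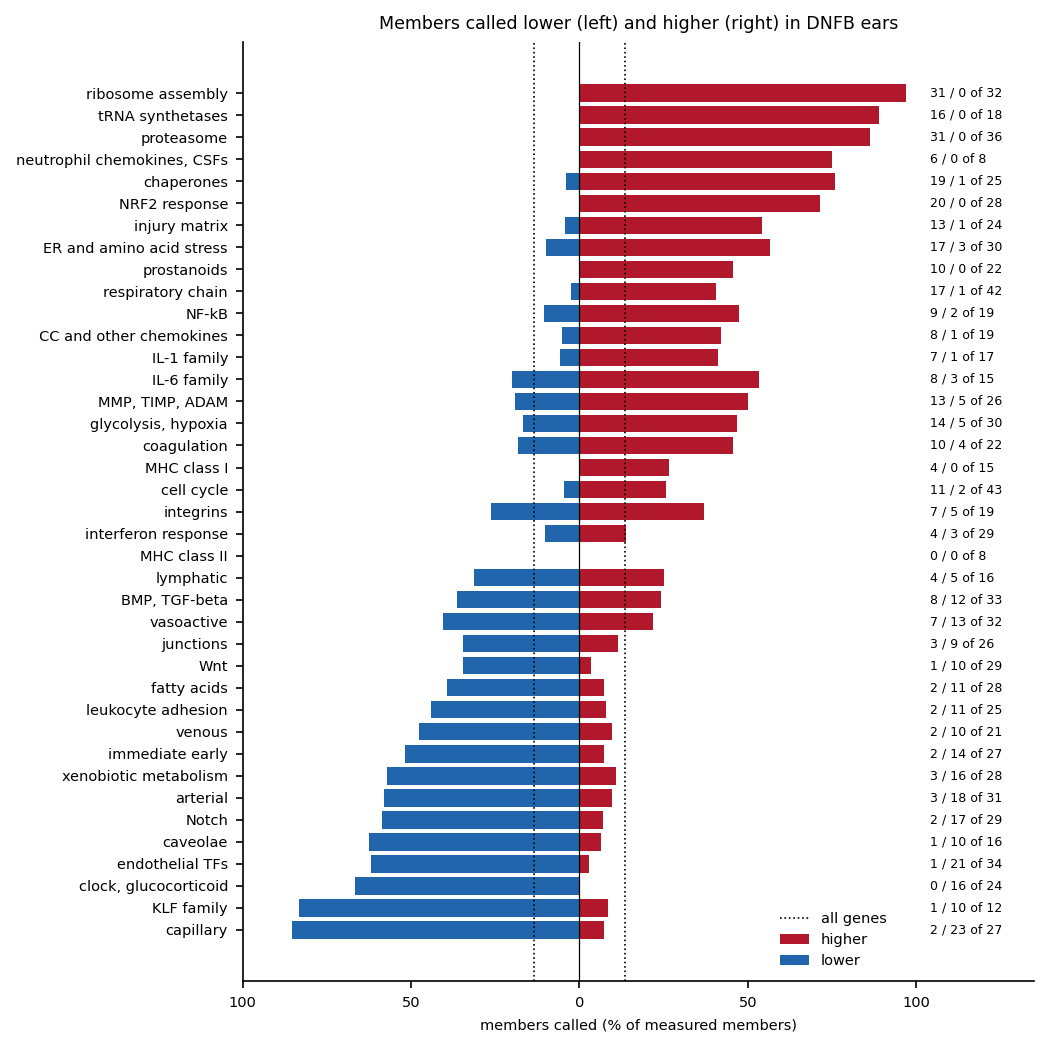
For 39 gene lists, bars show the share of measured members called lower (blue, to the left) and higher (red, to the right) in DNFB ears, in percent, with the counts of higher and lower members beside them. Dotted lines mark the share of all genes, 13.6% higher and 13.5% lower. Ribosome assembly, tRNA synthetases and proteasome stand at the top with almost only red, and capillary, KLF and clock genes at the bottom with almost only blue.

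Ribosomes are built in the nucleolus by polymerase I, snoRNA-guided modification complexes and assembly factors. Of 32 such genes, 31 rose and 0 fell, with a median difference of 1.43. Rrp12, an export factor of pre-ribosomes, stood at 5.26, 5.68 and 6.24 in vehicle and 7.39, 7.71 and 7.90 in DNFB arrays and rose by 2.01 ± 0.16 (adjusted p = 4.79e-07). Nop58, a core protein of box C/D snoRNPs, stood at 8.42, 8.68 and 8.79 in vehicle and 10.07, 10.35 and 10.57 in DNFB arrays and rose by 1.68 ± 0.12 (adjusted p = 2.17e-07). The groups did not overlap for either gene. The assembly factors Wdr12, Bysl and Ltv1 rose by 1.87, 1.74 and 1.74, the H/ACA proteins Nhp2, Gar1 and Dkc1 by 1.53, 1.42 and 1.37, and the polymerase I subunits Polr1a and Polr1b by 1.23 and 1.16. The abundant nucleolar proteins Ncl and Npm1 rose by 1.30 and 0.68. Myc, the transcription factor known to drive this programme, was the only member not called, at 10.04, 10.32 and 10.49 in vehicle and 9.87, 10.18 and 10.47 in DNFB arrays (difference -0.13 ± 0.12; adjusted p = 0.488).

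Of 18 cytoplasmic aminoacyl-tRNA synthetases, which charge tRNAs with amino acids, 16 rose, with a median difference of 0.95. Rars, the arginine enzyme, stood at 6.97, 7.54 and 7.81 in vehicle and 8.83, 9.01 and 9.30 in DNFB arrays and rose by 1.54 ± 0.14 (adjusted p = 1.44e-06); all its DNFB arrays lay above all vehicle arrays. Gars rose by 1.41, Yars by 1.25 and Hars by 1.25. The members not called were Wars and Qars, with differences of 0.37 and -0.23. Amino acid importers also moved: the cationic carrier Slc7a1 rose by 1.84 ± 0.13 (adjusted p = 2.30e-07), the glutamine carrier Slc38a1 by 1.60 ± 0.23 (adjusted p = 9.88e-05) and the neutral exchanger Slc7a5 by 1.57 ± 0.33 (adjusted p = 0.00205), while its heavy chain Slc3a2 had a difference of 0.19 and was not called. The taurine carrier Slc6a6 fell by 1.17 ± 0.14 (adjusted p = 2.06e-05).

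The proteasome degrades ubiquitinated proteins through a barrel-shaped core and a regulatory cap. Of 36 subunits and regulators measured, 31 rose and 0 fell, with a median of 0.93. Psmd14, the deubiquitinase of the cap, stood at 6.79, 6.97 and 7.14 in vehicle and 8.12, 8.45 and 8.73 in DNFB arrays and rose by 1.47 ± 0.12 (adjusted p = 4.85e-07). Pomp, the chaperone of core assembly, stood at 8.45, 8.61 and 8.79 in vehicle and 9.58, 10.09 and 10.26 in DNFB arrays and rose by 1.39 ± 0.14 (adjusted p = 3.02e-06). Neither gene had overlapping groups. The cap ATPases Psmc4 and Psmc2 rose by 1.26 and 1.19, and the catalytic core subunit Psmb5 by 0.98. The members tied to antigen presentation had smaller values: Psme1 and Psme2, the subunits of the interferon-inducible activator, had differences of 0.14 and 0.11, and the immunoproteasome subunits Psmb8, Psmb9 and Psmb10, counted with MHC class I, of 0.12, -0.09 and -0.06. None of these was called.

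Among chaperones, 19 of 25 rose and 1 fell. The cytosolic TRiC ring subunit Cct3 stood at 6.45, 6.94 and 7.19 in vehicle and 8.35, 8.42 and 8.57 in DNFB arrays and rose by 1.52 ± 0.13 (adjusted p = 6.80e-07), and all 7 other TRiC genes measured rose. The mitochondrial chaperones Hspa9 and Hspd1 rose by 1.50 and 1.10. The classical heat-inducible gene Hspa1a had a difference of -0.12 and was not called, and the small heat shock gene Hspb1 fell by 0.87 ± 0.12 (adjusted p = 5.20e-05). Of 30 genes of endoplasmic reticulum and amino acid stress, 17 rose and 3 fell. Those that rose included the one-carbon and amino acid enzymes Mthfd2 (2.67), Asns (1.77) and Psat1 (1.10) and the lumenal chaperones Sdf2l1 (0.97) and Hspa5 (0.45), while the stress-induced phosphatase subunit Ppp1r15a and the chaperone Dnajb9 had differences of 0.05 and 0.17, not called, and the transcription factor Atf3 fell by 0.54 ± 0.10 (adjusted p = 8.27e-04).

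Energy metabolism moved in parts. Of 30 glycolytic and hypoxia genes, 14 rose and 5 fell. Pgk1, a glycolytic enzyme, stood at 7.38, 7.83 and 7.96 in vehicle and 9.35, 9.50 and 9.68 in DNFB arrays and rose by 1.77 ± 0.12 (adjusted p = 1.55e-07), with no overlap. Hk2 and the monocarboxylate carrier Slc16a1 rose by 1.76 and 1.80. The glycolytic activator Pfkfb3 fell from a mean of 9.34 to 8.35, and the hypoxia genes Bnip3, Ndrg1 and Egln3 fell, with differences of -0.99, -0.99 and -0.94. Of 42 respiratory chain subunits 17 rose and 1 fell, with a median of 0.28, and cytochrome c, Cycs, had the largest rise at 1.05 ± 0.10 (adjusted p = 3.55e-06).

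The NRF2 response is the set of genes by which cells make glutathione, reduce thiols and conjugate electrophiles. Of 28 such genes 20 rose and 0 fell, with a median of 0.82. Slc7a11, the cystine importer that feeds glutathione synthesis, stood at 2.15, 2.44 and 3.74 in vehicle and 7.94, 8.60 and 9.37 in DNFB arrays. Its vehicle mean lay at background, and its DNFB mean lay 4.68 above the background limit. Hmox1, haem oxygenase, stood at 7.17, 7.32 and 7.81 in vehicle and 9.64, 10.46 and 11.20 in DNFB arrays and rose by 3.09 ± 0.22 (adjusted p = 2.41e-07). Srxn1, sulfiredoxin, stood at 4.55, 5.23 and 5.76 in vehicle and 7.65, 7.97 and 8.39 in DNFB arrays and rose by 2.80 ± 0.19 (adjusted p = 1.75e-07). Each of these had all DNFB arrays above all vehicle arrays.

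Other members cover the steps of the same defence. Glutathione synthesis was represented by Gclm and Gclc, which rose by 2.04 ± 0.15 (adjusted p = 2.47e-07) and 1.43 ± 0.19 (adjusted p = 4.13e-05), thiol reduction by Txnrd1 (1.68 ± 0.19, adjusted p = 1.26e-05) and Gsr (1.46 ± 0.17, adjusted p = 1.16e-05), NADPH supply by Pgd (1.99 ± 0.12, adjusted p = 7.72e-08) and Me1 (1.48 ± 0.23, adjusted p = 2.04e-04), and conjugation by Gsta4 (3.24 ± 0.31, adjusted p = 2.33e-06). The quinone reductase Nqo1 stood at 5.76, 6.16 and 6.33 in vehicle and 6.99, 7.39 and 7.67 in DNFB arrays and rose by 1.27 ± 0.15 (adjusted p = 1.79e-05). The genes of the regulators themselves were not called: Nfe2l2, which encodes NRF2, differed by 0.03 ± 0.13 (adjusted p = 0.891) and its inhibitor Keap1 by 0.06 ± 0.11 (adjusted p = 0.746).

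The RefSeq promoters of these genes (build GRCm38.p6) were searched for the antioxidant response core TGACNNNGC on both strands in the 250 bases before the start. It was found in 6 of the 23 NRF2-response genes with a promoter sequence (26.1%), against 12.3% of all 16990 measured genes with one, 13.8% of those that rose and 14.5% of those that fell. Other lists held it at shares near that of the NRF2 genes, 23.8% of chaperones and 22.7% of interferon response genes. The NRF2 genes with the motif were Nfe2l2, Gclm, Txnrd1, Abcc4, Mafg and Ugdh. Stretches from Gclm and Txnrd1, both of which rose, and from Nfe2l2, which was not called, are printed to show the motif in capitals (in the first pair it lies on the opposite strand), each read along the gene's strand at chr3:122245393-122245461 (+ strand), chr10:82859084-82859152 (+ strand) and chr2:75704865-75704913 (- strand).
Gclm: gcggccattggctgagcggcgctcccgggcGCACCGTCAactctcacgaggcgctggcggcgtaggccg
Txnrd1: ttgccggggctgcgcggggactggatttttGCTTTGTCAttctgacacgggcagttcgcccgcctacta
Nfe2l2: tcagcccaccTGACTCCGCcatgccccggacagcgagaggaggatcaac
A match is a description of the sequence and not a measured site.

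Enzymes of foreign compound metabolism outside the NRF2 set mostly fell. Of 28, 16 fell and 3 rose, with a median of -0.58. Fmo2, a flavin monooxygenase, stood at 8.51, 8.95 and 9.42 in vehicle and 5.67, 6.42 and 7.20 in DNFB arrays and fell by 2.53 ± 0.26 (adjusted p = 4.04e-06), and Fmo1 fell by 2.73 ± 0.24 (adjusted p = 1.05e-06). Abcb1a, the drug efflux pump P-glycoprotein, stood at 8.68, 8.91 and 9.22 in vehicle and 5.91, 6.58 and 6.99 in DNFB arrays and fell by 2.36 ± 0.17 (adjusted p = 2.18e-07). All DNFB arrays lay below all vehicle arrays for these genes. The glutathione transferases Gstt1 and Gstk1 fell, with differences of -1.69 and -1.37, which is opposite in direction to Gsta4, and the epoxide hydrolase Ephx1 fell by 1.73. The aryl hydrocarbon receptor gene Ahr and its target Cyp1a1 fell, with differences of -0.54 and -1.35, whereas another target, Cyp1b1, rose by 0.95 ± 0.19 (adjusted p = 0.00169).

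**Figure D3:**
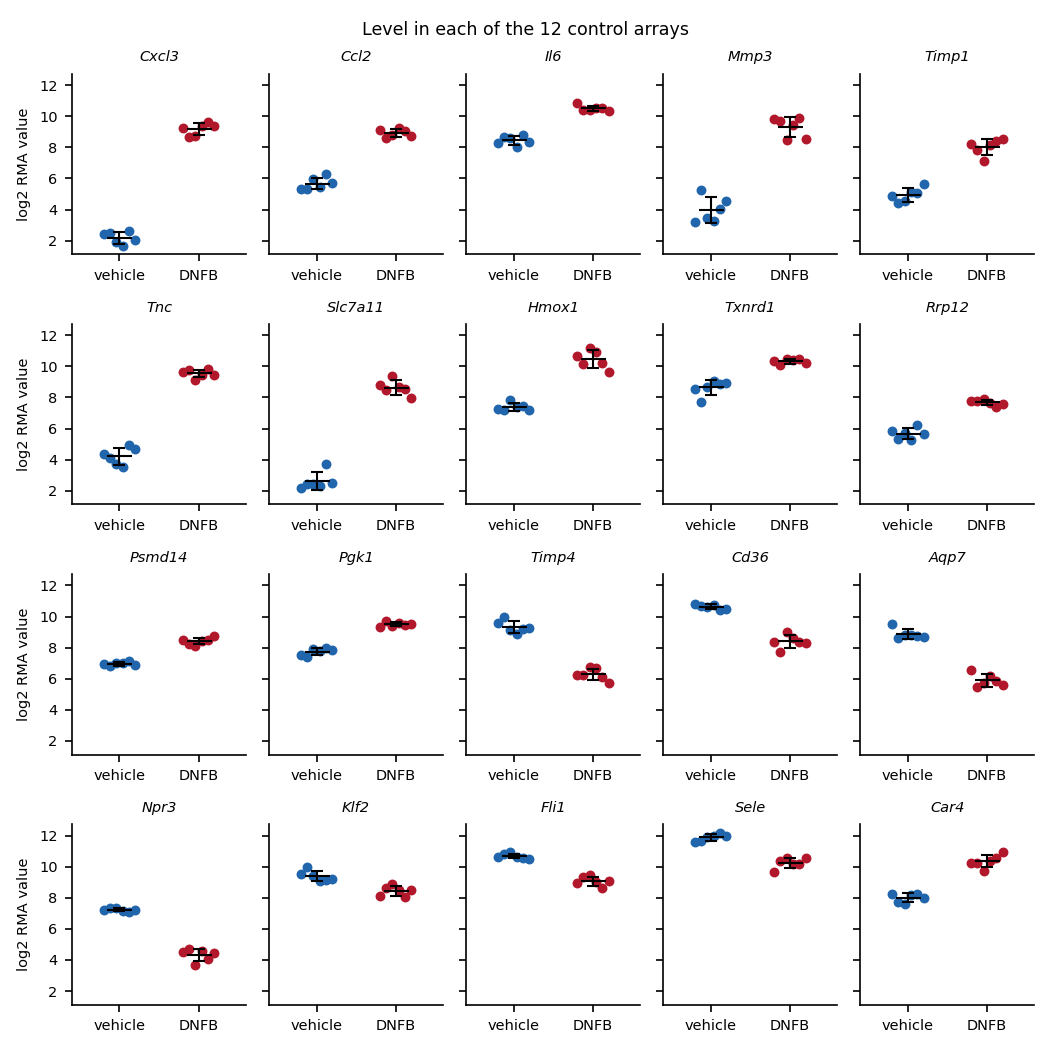
Levels of 20 genes in each of the 12 control arrays (log2 RMA value on a shared y axis; blue points, 6 vehicle arrays; red points, 6 DNFB arrays; black line and bar, mean ± SD). Treatments do not overlap in any of the 20 panels. Cxcl3 and Slc7a11 rise from background levels, Timp4, Npr3 and Aqp7 show the deepest falls, and Sele is lower and Car4 higher in every DNFB array than in any vehicle array.

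Chemokines that bind the neutrophil receptor CXCR2 rose together with their growth factor Csf3. Of 8 neutrophil chemokines and colony-stimulating factors 6 rose and 0 fell, and the rise of Csf2 lay within background in both groups. Cxcl3 stood at 1.65, 2.21 and 2.59 in vehicle and 8.67, 9.30 and 9.66 in DNFB arrays; its vehicle mean was at background, and its DNFB mean lay 5.23 above the background limit. Cxcl2 stood at 4.22, 4.66 and 5.02 in vehicle and 6.56, 7.41 and 7.83 in DNFB arrays and rose by 2.65 ± 0.21 (adjusted p = 5.38e-07), and Cxcl1 at 6.87, 7.12 and 7.49 in vehicle and 9.23, 9.47 and 9.71 in DNFB arrays and rose by 2.28 ± 0.13 (adjusted p = 3.35e-08). No values overlapped for these genes. Cxcl5 rose from background to a DNFB mean of 8.21. Csf3, the granulocyte growth factor, rose by 1.17 ± 0.19 (adjusted p = 2.38e-04), and Csf1, the macrophage growth factor, stood at 8.04, 8.19 and 8.40 in vehicle and 7.87, 8.15 and 8.61 in DNFB arrays with a difference of -0.01 ± 0.14 (adjusted p = 0.973).

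The promoters of these genes were searched for an NF-kB type motif, GGG, any 2 bases, then TTTCC, on both strands. It was found in 4 of the 6 with a promoter sequence, namely Cxcl1, Cxcl2, Cxcl3 and Csf1, against 1.67% of all 16990 measured genes with one. Csf1 holds the motif and was not called, so the sequences are set side by side, with every match in capitals, at chr5:90785998-90786067 (+ strand), chr5:90903772-90903841 (+ strand), chr5:90891126-90891195 (+ strand) and chr3:107760584-107760653 (- strand).
Cxcl3: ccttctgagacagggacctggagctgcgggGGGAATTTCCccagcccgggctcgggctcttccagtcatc
Cxcl2: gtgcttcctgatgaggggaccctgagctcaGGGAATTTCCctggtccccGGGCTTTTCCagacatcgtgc
Cxcl1: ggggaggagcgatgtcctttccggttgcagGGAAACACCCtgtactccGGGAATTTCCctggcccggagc
Csf1: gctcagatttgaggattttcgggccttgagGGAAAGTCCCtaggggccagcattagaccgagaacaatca
The first 3 genes lie within one stretch of chromosome 5, in the same orientation. Over all genes that rose, 1.79% held the motif, and over all that fell, 1.58%.

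Chemokines of T cells and monocytes rose as well. Cxcl9, a ligand of CXCR3 induced by interferon-gamma, stood at 4.82, 7.50 and 7.85 in vehicle and 9.32, 11.04 and 11.50 in DNFB arrays and rose by 3.66 ± 0.48 (adjusted p = 3.97e-05). Its vehicle arrays were close together apart from replicate 3, which was the lowest. Cxcl10 rose by 2.36 ± 0.24 (adjusted p = 4.40e-06), Cxcl11 by 1.44 ± 0.32 (adjusted p = 0.00333) and Cxcl16, a membrane-bound chemokine, by 1.19 ± 0.23 (adjusted p = 0.00123). Ccl2, the monocyte chemokine, stood at 5.33, 5.58 and 6.26 in vehicle and 8.59, 8.92 and 9.24 in DNFB arrays and rose by 3.24 ± 0.17 (adjusted p = 3.22e-08), and Ccl7 rose by 2.88 ± 0.29 (adjusted p = 3.95e-06). Of 19 CC and further chemokines and atypical receptors, Ccl2 and Ccl7 among them, 8 rose. The only one that fell was Cxcl12, the homeostatic chemokine of CXCR4, which stood at 8.12, 8.30 and 8.52 in vehicle and 6.55, 6.74 and 7.08 in DNFB arrays and fell by 1.54 ± 0.12 (adjusted p = 2.93e-07), without overlap.

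Cytokines followed a mixed pattern of ligands and receptors. In the IL-1 family 7 of 17 rose: Il1a (3.57 ± 0.40, adjusted p = 1.09e-05), Il1b (3.49 ± 0.45, adjusted p = 3.56e-05), the epithelial cytokine Il1f9 (3.75 ± 0.40, adjusted p = 5.82e-06), the antagonist Il1rn (2.01 ± 0.28, adjusted p = 5.90e-05), the alarmin Il33 (1.40 ± 0.24, adjusted p = 4.67e-04) and the receptors Il1r1 (0.66) and Il1rl2, the last of which lost the call when vehicle replicate 1 or 6 or DNFB replicate 1 or 5 was left out (adjusted p = 0.0572 to 0.069). The single gene that fell was Sigirr, an inhibitory receptor of the family, which stood at 7.51, 7.72 and 7.87 in vehicle and 5.52, 5.87 and 6.19 in DNFB arrays and fell by 1.81 ± 0.13 (adjusted p = 2.20e-07). In the IL-6 family 8 of 15 rose and 3 fell. Il6 stood at 8.03, 8.47 and 8.78 in vehicle and 10.32, 10.46 and 10.82 in DNFB arrays and rose by 2.05 ± 0.14 (adjusted p = 1.42e-07), Il11 rose by 3.48 ± 0.19 (adjusted p = 3.22e-08) and Lif by 1.53 ± 0.16 (adjusted p = 5.13e-06), while the receptor subunits Lifr and Il6st fell, with differences of -1.19 ± 0.13 (adjusted p = 7.09e-06) and -0.53 ± 0.10 (adjusted p = 6.09e-04). Treatments did not overlap for Il6.

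In the TNF families, Tnf rose by 2.04 ± 0.34 (adjusted p = 3.11e-04) and the co-stimulatory receptor Tnfrsf9 by 2.70 ± 0.22 (adjusted p = 6.13e-07), while the death ligand Tnfsf10 fell by 2.23 ± 0.28 (adjusted p = 2.74e-05) and the death receptor Fas fell by 0.91 ± 0.13 (adjusted p = 9.25e-05). Of 19 NF-kB subunits and feedback genes 9 rose and 2 fell. Tnfaip2 rose by 1.88 ± 0.15 (adjusted p = 4.44e-07) and Nfkb2 by 0.69 ± 0.10 (adjusted p = 9.49e-05), whereas the rapid inhibitors Nfkbia and Tnfaip3 were not called. Nfkbia stood at 11.52, 11.65 and 11.66 in vehicle and 11.36, 11.41 and 11.47 in DNFB arrays, with a difference of -0.22 ± 0.08 (adjusted p = 0.0762), although all its DNFB arrays lay below its vehicle arrays. Tnfaip3 stood at 7.87, 8.14 and 8.19 in vehicle and 7.90, 7.97 and 8.21 in DNFB arrays, with a difference of -0.05 ± 0.10 (adjusted p = 0.769). Of the homeostatic cytokines, Il15 fell by 0.94 ± 0.19 (adjusted p = 0.0016) and Il34, a ligand of the CSF1 receptor, fell by 1.49 ± 0.19 (adjusted p = 3.29e-05).

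Leukocyte adhesion molecules were not raised as a group. Of 25, 11 fell and 2 rose. Sele, E-selectin, stood at 11.60, 11.94 and 12.19 in vehicle and 9.64, 10.27 and 10.53 in DNFB arrays and fell by 1.65 ± 0.16 (adjusted p = 2.91e-06). Icam1 stood at 10.42, 10.86 and 11.08 in vehicle and 9.96, 10.13 and 10.43 in DNFB arrays and fell by 0.58 ± 0.14 (adjusted p = 0.00572), and Vcam1 stood at 4.71, 5.56 and 5.84 in vehicle and 4.89, 6.13 and 7.25 in DNFB arrays with a difference of 0.69 ± 0.30 (adjusted p = 0.12), not called. The DNFB arrays lay below the vehicle arrays for Sele, and the ranges of Icam1 and Vcam1 overlapped. Without DNFB replicate 3, its lowest DNFB array, Vcam1 rose by 0.93 (adjusted p = 0.0121). The members that rose were Alcam (1.26 ± 0.24, adjusted p = 9.42e-04) and the hyaluronan receptor Cd44, which stood at 5.07, 5.56 and 5.75 in vehicle and 7.95, 8.40 and 9.18 in DNFB arrays and rose by 3.05 ± 0.23 (adjusted p = 2.68e-07).

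Matrix genes changed in both directions. Of 26 metalloproteinases and inhibitors 13 rose and 5 fell. The proteases that rose included Mmp3, Mmp10 (2.07 ± 0.27, adjusted p = 3.81e-05), the membrane enzyme Mmp14 (1.31 ± 0.15, adjusted p = 1.22e-05), Adamts5 (1.81 ± 0.27, adjusted p = 1.31e-04) and Adam8 (2.48 ± 0.37, adjusted p = 1.34e-04). The proteases that fell were Adam10 (-0.50 ± 0.12, adjusted p = 0.00432) and Adam15 (-0.60 ± 0.14, adjusted p = 0.00491), both membrane-bound. Among the inhibitors, Timp1 stood at 4.44, 4.96 and 5.64 in vehicle and 7.11, 8.19 and 8.53 in DNFB arrays and rose by 3.10 ± 0.24 (adjusted p = 4.83e-07), while Timp2 fell from a mean of 9.49 to 8.55, Timp3 fell by 0.74 ± 0.10 (adjusted p = 7.27e-05) and Timp4 by the amount given above. Timp1 was thus the only one of the 4 inhibitor genes to rise.

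Of 24 genes of provisional and cross-linked matrix 13 rose and 1 fell. The hyaluronan synthases Has1 and Has2 rose by 2.07 ± 0.23 (adjusted p = 1.00e-05) and 1.78 ± 0.17 (adjusted p = 2.83e-06), the hyaluronan-binding protein Tnfaip6 by 1.69 ± 0.21 (adjusted p = 2.06e-05), and the cross-linking enzymes Loxl1 and Loxl4 by 2.14 ± 0.15 (adjusted p = 1.94e-07) and 2.04 ± 0.23 (adjusted p = 9.44e-06). Of 21 basement membrane genes 4 rose and 7 fell. The type IV collagen chains Col4a1 and Col4a2 rose by 0.62 and 0.50 and the linker Nid2 by 1.03. The laminin chains Lama5, Lamb2 and Lama3, the last known from epidermis, fell, with differences of -0.95, -0.89 and -1.27, and agrin, Agrn, fell by 1.00. Other laminin chains overlapped between treatments: Lama4 (8.66 to 9.15 in vehicle, 8.08 to 8.86 in DNFB arrays), Lamc1 (9.09 to 9.30, 8.85 to 9.16) and Lamb1 (7.82 to 8.20, 7.93 to 8.53). Of 19 integrin genes 7 rose and 5 fell. The chains of the vitronectin receptor Itgav and Itgb3 rose by 1.36 and 1.45, and Itga6, Itga7 and Itgb4, which bind laminin, fell, with differences of -0.38, -1.27 and -1.28. Laminin-binding integrins did not all go down. Itgb1 stood at 8.90 to 9.12 in vehicle and 9.55 to 9.82 in DNFB arrays, and Itga3 at 7.16 to 7.44 and 7.24 to 7.90. Itgb3 is also a platelet gene and was counted there too.

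Clotting and fibrinolytic transcripts of the sorted samples changed in both directions, and which cells carried them was not tested. Tissue factor, F3, the starter of coagulation, stood at 3.49, 4.66 and 5.02 in vehicle and 7.07, 7.63 and 7.94 in DNFB arrays and rose by 3.00 ± 0.24 (adjusted p = 4.73e-07). Plau and Plaur, urokinase and its receptor, rose by 2.43 ± 0.10 (adjusted p = 4.79e-09) and 2.05 ± 0.11 (adjusted p = 3.22e-08), and the inhibitor Tfpi2 by 2.01 ± 0.27 (adjusted p = 5.52e-05). The protein C receptor Procr rose by 2.23 ± 0.12 (adjusted p = 3.62e-08), while thrombomodulin, Thbd, its partner on the endothelial surface, fell by 0.76 ± 0.12 (adjusted p = 1.62e-04). Von Willebrand factor, Vwf, stood at 10.19, 10.53 and 10.67 in vehicle and 8.75, 9.06 and 9.58 in DNFB arrays and fell by 1.35 ± 0.15 (adjusted p = 1.09e-05). Of 22 genes of this list 10 rose and 4 fell.

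Of 22 prostanoid and leukotriene genes 10 rose and 0 fell. Ptgs2, the inducible cyclooxygenase, stood at 2.63, 3.15 and 3.50 in vehicle and 6.75, 7.70 and 8.38 in DNFB arrays; its vehicle mean was at background, and the DNFB mean lay 3.62 above the background limit. Ptgis, prostacyclin synthase, stood at 5.34, 5.55 and 5.86 in vehicle and 6.71, 7.40 and 7.89 in DNFB arrays and rose by 1.78 ± 0.21 (adjusted p = 1.43e-05), without overlap. Ptges, a prostaglandin E synthase, rose by 1.24 ± 0.26 (adjusted p = 0.00207), Pla2g4a, which releases arachidonic acid, by 1.27 ± 0.22 (adjusted p = 3.76e-04), and the prostaglandin carrier Slco2a1 by 0.67.

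Receptors and enzymes of vessel tone fell more often than they rose, with 13 of 32 lower and 7 higher. Along the natriuretic peptide and cyclic GMP route, Npr3, Npr1 (-1.58 ± 0.12, adjusted p = 4.37e-07), Npr2 (-1.21 ± 0.18, adjusted p = 9.92e-05) and Gucy1a1 all fell. Ace, angiotensin-converting enzyme, stood at 10.45, 10.68 and 10.69 in vehicle and 8.24, 8.50 and 9.13 in DNFB arrays and fell by 2.09 ± 0.14 (adjusted p = 1.42e-07). The adrenomedullin receptor genes Calcrl and Ramp2 fell, with differences of -0.75 and -0.77, while the ligand Adm rose by 0.62 ± 0.16 (adjusted p = 0.00858). Ednrb, the endothelin B receptor, went the other way: it stood at 7.41, 7.88 and 8.01 in vehicle and 10.04, 10.58 and 10.81 in DNFB arrays and rose by 2.70 ± 0.15 (adjusted p = 4.00e-08), with no overlap. Nos3, endothelial nitric oxide synthase, rose by 0.55 ± 0.15 (adjusted p = 0.0145), and S1pr3 and Sphk1 of the sphingosine phosphate system rose by 1.48 and 1.51.

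Capillary genes formed the counterpart of the protein machinery. Of 27, 23 fell and 2 rose, with a median of -1.03. Cd36, the fatty acid carrier, stood at 10.40, 10.65 and 10.83 in vehicle and 7.73, 8.36 and 9.01 in DNFB arrays and fell by 2.23 ± 0.17 (adjusted p = 4.21e-07). Aqp7, an aquaglyceroporin, stood at 8.60, 8.78 and 9.53 in vehicle and 5.48, 5.78 and 6.54 in DNFB arrays and fell by 2.97 ± 0.20 (adjusted p = 1.37e-07). Gpihbp1, which holds lipoprotein lipase on the capillary wall, fell by 1.67 ± 0.22 (adjusted p = 4.43e-05), and Lpl itself fell by 1.90 ± 0.16 (adjusted p = 6.69e-07). In each of these the treatments did not overlap. Car4, a carbonic anhydrase anchored on the capillary surface, was one of the exceptions: it stood at 7.60, 8.09 and 8.27 in vehicle and 9.75, 10.32 and 10.96 in DNFB arrays and rose by 2.35 ± 0.19 (adjusted p = 4.91e-07). The other was the monocarboxylate carrier Slc16a1.

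Caveolar genes fell with them, 10 of 16 lower and 1 higher. Cavin2, a coat protein of caveolae, stood at 10.26, 10.41 and 10.60 in vehicle and 7.73, 8.20 and 8.54 in DNFB arrays and fell by 2.23 ± 0.15 (adjusted p = 1.37e-07); Cav1 fell by 1.01 ± 0.10 (adjusted p = 2.65e-06) and Cavin1 fell by 0.95 ± 0.11 (adjusted p = 8.57e-06). The member that rose, Aqp3, is an aquaporin of the epidermis as well, and rose by 2.37 ± 0.25 (adjusted p = 6.44e-06). Tight junction genes fell in part: Cldn5 stood at 10.62, 10.98 and 11.42 in vehicle and 9.11, 9.62 and 10.31 in DNFB arrays and fell by 1.35 ± 0.19 (adjusted p = 7.51e-05), and the scaffold Tjp1 fell by 1.28 ± 0.09 (adjusted p = 2.51e-07), while occludin, Ocln, had a difference of 0.25 and was not called. Fatty acid genes beyond the capillary set included Cpt1a, the gate of mitochondrial fatty acid entry, which fell by 1.28 ± 0.12 (adjusted p = 1.72e-06), and Pparg, which fell by 1.06 ± 0.19 (adjusted p = 5.25e-04).

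The transcription factors that hold endothelial identity mostly fell. Of 34, 21 fell and 1 rose, with a median of -0.55. Fli1, an ETS factor, stood at 10.51, 10.64 and 10.91 in vehicle and 8.62, 9.03 and 9.43 in DNFB arrays and fell by 1.62 ± 0.14 (adjusted p = 8.32e-07), while its relative Erg stood at 8.62, 8.83 and 9.05 in vehicle and 8.29, 8.51 and 8.79 in DNFB arrays, with a difference of -0.31 ± 0.11 (adjusted p = 0.059), which passed the threshold without vehicle replicate 1 or DNFB replicate 3. The SOXF factors Sox17 and Sox18 fell, with differences of -1.45 ± 0.15 (adjusted p = 5.54e-06) and -1.04 ± 0.17 (adjusted p = 2.92e-04), and Sox7 fell by 0.45 ± 0.11 (adjusted p = 0.00621). Nr2f2, the factor of venous identity, fell by 1.55 ± 0.15 (adjusted p = 2.12e-06), and Hey2 of arteries fell by 1.27 ± 0.17 (adjusted p = 5.18e-05). The only member that rose was Etv6, an ETS repressor (0.77 ± 0.10, adjusted p = 3.08e-05).

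Of 12 Kruppel-like factors 10 fell and 1 rose. Klf2 and Klf4, which flow induces in quiescent endothelium, both fell: Klf2 stood at 9.06, 9.30 and 9.99 in vehicle and 8.02, 8.50 and 8.90 in DNFB arrays and fell by 0.95 ± 0.18 (adjusted p = 9.06e-04), and Klf4 went from a vehicle mean of 9.71 to a DNFB mean of 8.76 and fell by 0.95 ± 0.11 (adjusted p = 1.78e-05). Klf15 fell by 1.44 ± 0.19 (adjusted p = 5.11e-05) and Klf13 fell by 1.30 ± 0.16 (adjusted p = 2.63e-05), whereas Klf5, a factor of proliferating epithelium and smooth muscle, rose by 0.69 ± 0.20 (adjusted p = 0.0175). Klf2 arrays did not overlap between treatments.

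Genes of the signals that pattern vessels changed in both directions, with counts that differed by pathway. Of 29 Notch pathway genes 17 fell and 2 rose. The effectors Hey1 and Heyl fell, with differences of -0.93 ± 0.11 (adjusted p = 1.99e-05) and -1.65 ± 0.26 (adjusted p = 2.09e-04), and the ligand Jag2 fell by 1.69 ± 0.18 (adjusted p = 5.53e-06), while the receptor gene Notch1 had a difference of -0.06 ± 0.10 (adjusted p = 0.736). Of 29 Wnt pathway genes 10 fell and 1 rose: the feedback target Axin2 stood at 6.34, 6.48 and 6.68 in vehicle and 5.15, 5.34 and 5.64 in DNFB arrays and fell by 1.15 ± 0.12 (adjusted p = 3.83e-06), the target Apcdd1 fell by 1.38 ± 0.14 (adjusted p = 3.64e-06), and the endothelial receptor Fzd4 fell by 1.28 ± 0.15 (adjusted p = 1.37e-05). Of 8 angiopoietin and TIE genes 3 fell and 1 rose. Tek, the angiopoietin receptor TIE2, stood at 9.70, 9.89 and 10.43 in vehicle and 7.51, 7.95 and 8.64 in DNFB arrays and fell by 1.97 ± 0.18 (adjusted p = 1.95e-06), while Angpt2, its context-dependent antagonist, rose by 1.00 ± 0.19 (adjusted p = 7.72e-04). Of 13 genes of the VEGF system 4 rose and 4 fell, and of 26 genes of sprouting tip cells 10 rose and 6 fell. The VEGF co-receptor Nrp1 fell by 1.78 ± 0.11 (adjusted p = 1.00e-07), the receptor Kdr fell by 0.71 ± 0.11 (adjusted p = 2.29e-04), and the ligands Vegfa and Pgf rose by 1.10 and 0.80. Treatments did not overlap for Tek.

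Of 33 genes of the BMP and TGF-beta system 8 rose and 12 fell. The ligand genes Inhbb, Inhba, Bmp2 and Bmp4 rose by 2.26, 1.70, 1.67 and 1.12, and Bmp6 fell by 1.18. Of the TGF-beta ligands, Tgfb1 rose by 0.39, and Tgfb2 and Tgfb3 fell, with differences of -0.40 and -0.78. The call of Tgfb2 was lost without vehicle replicate 1 or 3 or DNFB replicate 2 or 6 (adjusted p = 0.0512 to 0.0543), and that of Tgfb3 without DNFB replicate 1 (adjusted p = 0.0557). The receptor genes Bmpr2, Tgfbr2 and Tgfbr3 fell, with differences of -0.64, -0.68 and -1.26, and the targets Id1 and Id3 fell, with differences of -0.42 and -0.56. Eng and Acvrl1, the receptors mutated in hereditary haemorrhagic telangiectasia, had differences of 0.09 and 0.24 and were not called.

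Genes of the circadian clock and of the glucocorticoid response fell without an exception among those called. Of 24, 16 fell and 0 rose, with a median of -0.58. Tef and Dbp, clock-driven factors of the PAR family, both fell. Tef stood at 6.20, 6.27 and 6.57 in vehicle and 4.59, 4.77 and 5.04 in DNFB arrays and fell by 1.51 ± 0.11 (adjusted p = 2.18e-07). Dbp stood at 6.15, 6.35 and 6.59 in vehicle and 4.59, 4.94 and 5.24 in DNFB arrays and fell by 1.42 ± 0.13 (adjusted p = 1.96e-06). No DNFB array reached the vehicle range of either gene. Hlf of the same family fell by 1.72 ± 0.18 (adjusted p = 5.83e-06). The period genes Per1 and Per3 fell, with differences of -1.03 ± 0.13 (adjusted p = 2.55e-05) and -1.40 ± 0.15 (adjusted p = 7.53e-06), and the repressor Cry2 fell by 1.14 ± 0.11 (adjusted p = 1.91e-06). Arntl, which encodes the positive factor BMAL1, had a difference of 0.45 and was not called. Tsc22d3 and Zbtb16, induced by glucocorticoids, fell, with differences of -1.32 ± 0.18 (adjusted p = 4.45e-05) and -1.50 ± 0.31 (adjusted p = 0.00178), whereas Fkbp5, another such gene, stood at 4.76, 5.37 and 5.88 in vehicle and 4.94, 5.23 and 6.01 in DNFB arrays with a difference of -0.01 ± 0.21 (adjusted p = 0.983). The hour of the day at which ears were taken is not given in the sources used here.

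The clock factors bind an E-box, CACGTG, a motif chosen here after the values had been seen. It stood in the 250 bases before the start of 7 of the 21 genes of this list with a promoter sequence (33.3%), against 7.83% of all measured genes with one, 11% of those that rose and 9.29% of those that fell. The matches were in Per1, Tef, Bhlhe41, Cry1, Ciart, Sgk1 and Fkbp5, of which Cry1, Ciart and Fkbp5 were not called. Per1 and Tef are shown, with the motif in capitals, at chr11:69098753-69098818 (+ strand) and chr15:81802516-81802581 (+ strand).
Per1: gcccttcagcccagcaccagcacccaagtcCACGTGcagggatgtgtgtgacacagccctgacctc
Tef: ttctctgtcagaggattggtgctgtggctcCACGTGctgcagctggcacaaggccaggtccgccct

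**Figure D4:**
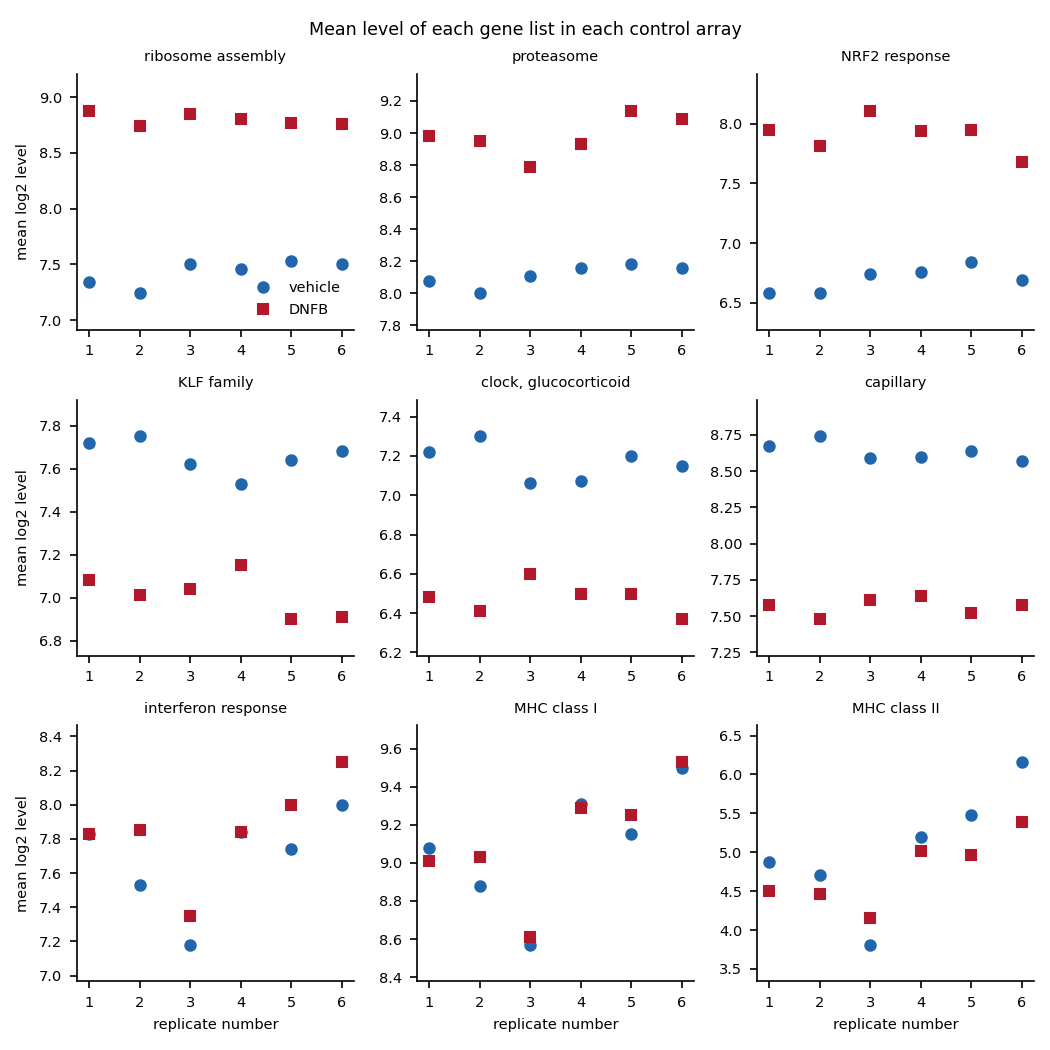
Mean log2 level of 9 gene lists in each control array, by replicate number (blue circles, vehicle; red squares, DNFB; each panel has its own y axis). Treatments separate fully in the first 6 panels, and in the interferon and MHC panels the levels of both treatments are lowest at replicate 3 and highest at replicate 6.

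The mean level of several of these lists was also taken array by array. The mean level of the ribosome assembly genes was 7.24 to 7.53 in vehicle and 8.74 to 8.88 in DNFB arrays, that of the proteasome at most 8.18 and at least 8.79, and that of the NRF2 genes 6.58 to 6.84 and 7.68 to 8.11. Capillary genes gave 8.57 to 8.74 and 7.48 to 7.64, Kruppel-like factors 7.53 to 7.75 and 6.90 to 7.15, and clock and glucocorticoid genes 7.06 to 7.30 and 6.37 to 6.60. In each of these lists every DNFB array lay on one side of every vehicle array. The lists were chosen with earlier results of these data known, which favours such separation. Single members already separated in 31 of 32 ribosome assembly genes and 23 of 27 capillary genes, so the means are a description only.

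Most interferon and antigen presentation genes were not called, and the same holds for most genes measured. Of 29 interferon response genes 4 rose and 3 fell, beside 13.6% higher and 13.5% lower over all genes. Over genes above background in at least 1 group the shares were 21.7% and 21.9%. Isg15, a ubiquitin-like product of interferon signalling, stood at 7.75, 8.18 and 8.55 in vehicle and 7.67, 8.56 and 9.19 in DNFB arrays, with a difference of 0.32 ± 0.25 (adjusted p = 0.405). Rsad2, the antiviral viperin, fell by 1.06 ± 0.20 (adjusted p = 8.46e-04), while Irf8 rose by 1.64 ± 0.17 (adjusted p = 6.00e-06) and Oasl1 by 1.66 ± 0.22 (adjusted p = 5.27e-05). The Isg15 ranges overlapped.

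Of 8 MHC class II genes none was called. H2-Aa, a class II alpha chain, stood at 3.68, 5.60 and 7.15 in vehicle and 4.03, 5.30 and 5.64 in DNFB arrays, with a difference of -0.44 ± 0.45 (adjusted p = 0.551), so that the spread within each treatment exceeded the difference between them. Of 15 class I and peptide loading genes 4 rose, namely the peptide transporter Tap1 (0.71 ± 0.25, adjusted p = 0.049) and the lumenal chaperones Calr, Canx and Pdia3, and this count was 2 to 4 when any single array was left out, with Tap1 and Pdia3 as the members that lost the call. H2-K1, a classical class I chain, stood at 9.22, 9.52 and 10.47 in vehicle and 9.17, 9.38 and 9.97 in DNFB arrays with a difference of -0.23 ± 0.23 (adjusted p = 0.54).

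Cell cycle genes changed in part. Of 43 replication and mitosis genes 11 rose and 2 fell. The replication helicase subunits Mcm3 and Mcm5 rose by 1.01 ± 0.13 (adjusted p = 3.76e-05) and 0.93 ± 0.17 (adjusted p = 8.07e-04) and Ccnd1, cyclin D1, by 1.01 ± 0.21 (adjusted p = 0.00187), but the proliferation marker Mki67 stood at 4.78, 5.42 and 5.83 in vehicle and 4.52, 5.03 and 6.23 in DNFB arrays with a difference of -0.12 ± 0.30 (adjusted p = 0.828). Inhibitors of the cycle fell in part: Cdkn1b, p27, stood at 7.74, 8.04 and 8.13 in vehicle and 6.42, 6.53 and 6.69 in DNFB arrays and fell by 1.45 ± 0.10 (adjusted p = 2.17e-07), and Trp53inp1 fell by 1.96 ± 0.24 (adjusted p = 2.49e-05). The immediate early genes, known to respond to tissue digestion as well, fell in 14 of 27 and rose in 2: Fos stood at 8.46, 8.73 and 8.93 in vehicle and 7.49, 7.86 and 8.19 in DNFB arrays and fell by 0.89 ± 0.13 (adjusted p = 1.09e-04), and Maff and Dusp5 rose by 1.07 and 1.12.

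Transcripts of other cells moved with the treatment and stand beside every result above. Of 19 keratinocyte markers 8 rose and 1 fell, and their mean level was 5.35 to 6.17 in vehicle and 6.52 to 8.52 in DNFB arrays, lowest in DNFB replicate 3 and highest in replicate 5. The mean hides a wide range of levels, as Krt6a and Krt16 had vehicle means at background. The keratin gene Krt14 stood at 10.60 to 11.46 in vehicle and 11.14 to 12.27 in DNFB arrays. Krt10 stood at 9.50 to 10.64 in vehicle and 8.81 to 10.42 in DNFB arrays. The stress keratins Krt6a, Krt16 and Krt17 rose by 4.82, 5.93 and 3.61, the follicle keratin Krt15 fell by 2.03 ± 0.24 (adjusted p = 1.34e-05), and the desmosomal gene Dsp had a difference of 0.16 and was not called. Sprr1a, a cornified envelope gene, rose by 4.64 ± 0.40 (adjusted p = 1.02e-06). Defb14, Il1f9 and Aqp3 are known from epidermis as well, and the part of keratinocyte RNA in their rises was not tested.

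Of 10 pan-leukocyte markers 8 rose, with mean levels of 4.15 to 4.65 in vehicle and 4.89 to 5.92 in DNFB arrays, and of 14 neutrophil markers 8 rose, with mean levels of 3.21 to 3.39 and 4.27 to 5.06. S100a8 and S100a9, abundant in neutrophils and in inflamed epidermis, rose by 4.99 and 3.81, whereas Mmp8, Ly6g, Ngp, Camp, Ltf, Mpo and Elane had means at background in both groups. Not all of the 8 rises of neutrophil markers therefore lay above background. Of 15 macrophage and monocyte markers 6 rose and 1 fell, with mean levels of 4.07 to 4.71 in vehicle and 4.77 to 5.71 in DNFB arrays. T and NK cell markers had mean levels of 3.46 to 3.89 and 3.62 to 4.09, and of 15 T and NK cell markers 2 rose, Gzmb (1.65, from a vehicle mean at background) and Cd3d, at background in both groups like Cd3e, Cd3g, Cd4 and Cd8a. Of 9 platelet genes 8 rose, among them Pf4 (2.94) and Ppbp (3.28), with mean levels of 4.25 to 4.85 in vehicle and 5.48 to 6.71 in DNFB arrays. Leukocytes and platelets are known sources of Cxcl2, Cxcl3, Il1b, Tnf, Clec4e and Ppbp, and their part in the rises of these genes was not tested.

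Pericyte and smooth muscle markers fell in 10 of 13 genes and rose in 0, with mean levels of 8.67 to 8.97 in vehicle and 7.47 to 8.32 in DNFB arrays. Higd1b and Kcnj8, both of pericytes, fell, with differences of -2.89 ± 0.20 (adjusted p = 1.65e-07) and -1.95 ± 0.25 (adjusted p = 3.94e-05), while the smooth muscle actin gene Acta2 had means of 9.86 in vehicle and 9.86 in DNFB arrays and was not called. Gucy1a1, Fhl5, Npy1r and Notch3 are also expressed in mural cells, and the part of that cell type in their falls was not tested. Fibroblast markers rose in 3 of 11 genes, with mean levels of 5.98 to 6.55 and 6.61 to 7.38; Mmp3, Timp1 and Tnc are known from fibroblasts as well, and that part was not tested either. The mean level of 25 pan-endothelial genes was 9.58 to 9.87 in vehicle and 8.84 to 9.14 in DNFB arrays, and 16 of them fell. Without DNFB replicates 3 and 5, the arrays with the lowest and highest keratinocyte level, 2845 probe sets rose and 2827 fell.

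**Figure D5:**
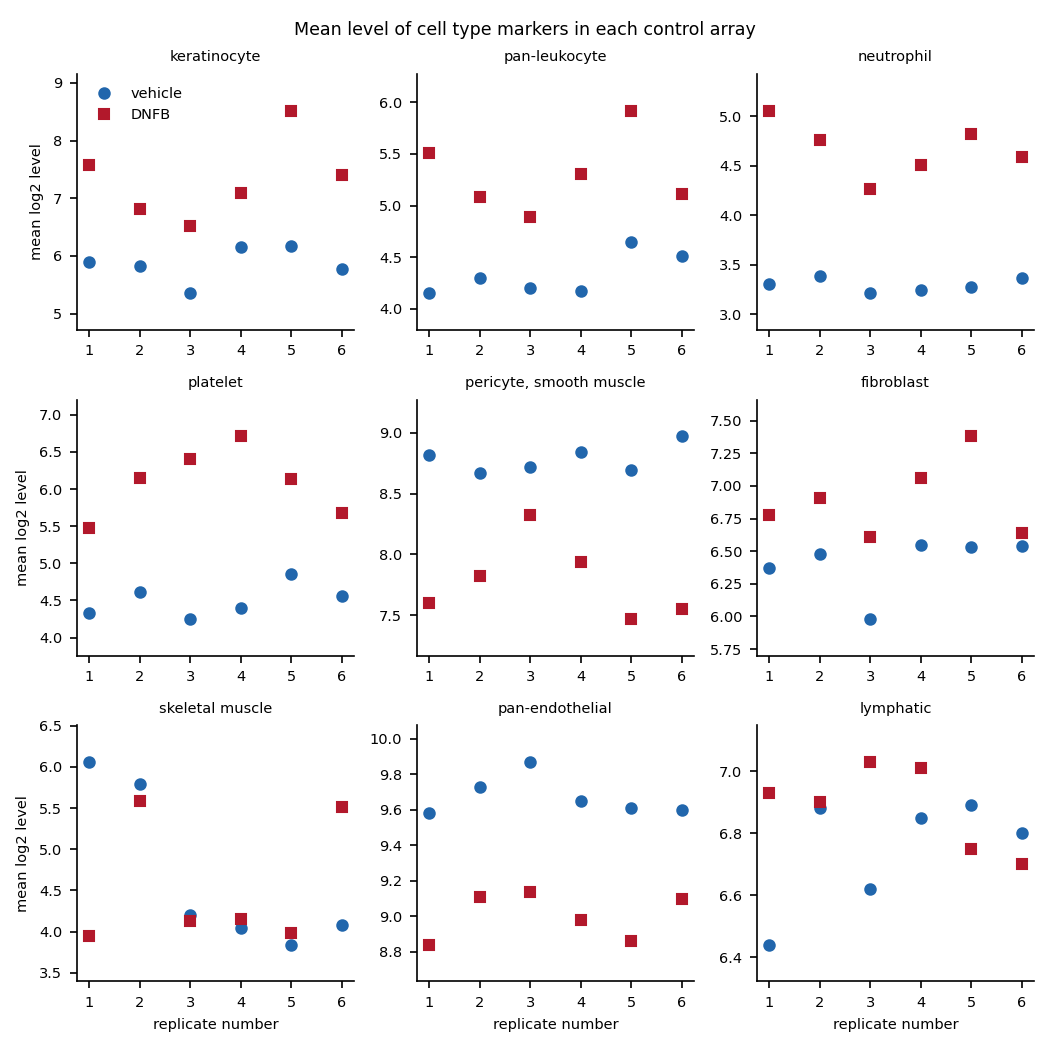
Mean log2 level of 9 sets of cell type markers in each control array, by replicate number (blue circles, vehicle; red squares, DNFB; each panel has its own y axis). Keratinocyte, leukocyte, neutrophil, platelet and fibroblast markers lie higher and pericyte and pan-endothelial markers lower in every DNFB array than in any vehicle array, lymphatic markers overlap, and skeletal muscle markers are high in vehicle replicates 1 and 2 and DNFB replicates 2 and 6.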

How the data were processed

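Endothelial RNA of 12 control ear samples was measured on Affymetrix mouse gene arrays. The authors deposited log2 values per probe set, made with RMA in Affymetrix Expression Console per the submitters' processing notes; versions, options and probe positions are not given in the sources used here, and raw intensities were not used. RMA shrinks differences near background. Of 41345 probe sets, 23521 carried 1 gene symbol in the platform annotation (23328 matched RefSeq by gene ID), 1814 several and 16010 none; only the first kind was used, without a filter on low values. Limma 3.58.1 in R 4.3.3 fitted 1 mean per treatment to the 12 arrays, with moderated tests and Benjamini-Hochberg adjustment over 23521 probe sets. A gene with several probe sets stands by the one of highest mean; in 5 of 1082 such genes probe sets were called in opposite directions. Promoters are RefSeq sequences of GRCm38.p6, and figures used matplotlib 3.10.9 in Python 3.11.15.

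The members and the 69 gene lists (1379 symbols, 1278 measured) were chosen with earlier results of these data known. Named genes are the 15 largest rises and 15 largest falls above background and not overlapping, up to 10 starting and 10 ending at background, list members, and the genes of the sort; others are stated. Simulated data with 200 changed probe sets served as a test of the fit: differences of 0.5, 1 and 2 were recovered in 19.4%, 73.1% and 100% of cases, and 7.91% of calls were unchanged probe sets. Alternatives were 2 filters, all probe sets, 3 normalizations, trended robust variances, array weights, replicate blocks, each array left out and a limit of 1 log2 unit.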

Additional observations from a re-analysis of the deposited data

Results flagged for a closer look

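In 36 of 698 sets of 6 values named in the text, the highest or lowest array lay far from the others by Dixon's test at 95%, and chance alone sets apart about 1 set in 20. Of these, 21 lay in vehicle and 15 in DNFB arrays. The values that follow are log2 levels, each with the nearest other array of its group in parentheses. DNFB replicate 1 was highest for Cxcl11 at 6.54 (4.77), Dkc1 at 7.86 (7.66), Ngp at 5.21 (3.41) and Polr1a at 8.21 (7.87). DNFB replicate 2 was highest for Col4a1 at 7.76 (7.59). DNFB replicate 2 was lowest for Agrn at 7.16 (7.32). DNFB replicate 3 was highest for Itgb3 at 8.24 (7.88) and Nrp1 at 8.33 (8.02). DNFB replicate 3 was lowest for Mmp14 at 9.23 (9.72), Psmb10 at 9.70 (10.39), Sod2 at 9.20 (9.54) and Tap1 at 9.63 (10.36). DNFB replicate 5 was highest for Adamts5 at 7.26 (6.78) and the mean list level of macrophage monocyte at 5.71 (5.03). DNFB replicate 5 was lowest for Npr1 at 6.64 (7.07). Vehicle replicate 1 was highest for Aqp7 at 9.53 (8.84) and Atf3 at 9.98 (9.71). Vehicle replicate 1 was lowest for Ace at 10.45 (10.63), Ahr at 8.58 (8.79) and Hspa9 at 8.80 (9.08). Vehicle replicate 2 was highest for Ly6g at 3.59 (2.98), Sult1a1 at 8.80 (8.29) and Tef at 6.57 (6.32). Vehicle replicate 2 was lowest for Id3 at 9.61 (9.99), Nhp2 at 6.76 (7.28), Psmb5 at 9.43 (9.86) and Txnrd1 at 7.70 (8.57). Vehicle replicate 3 was highest for Kdr at 11.19 (10.87) and Sox18 at 8.47 (7.92). Vehicle replicate 3 was lowest for Cxcl9 at 4.82 (7.37), Timp3 at 11.04 (11.14) and the mean list level of fibroblast at 5.98 (6.37). Vehicle replicate 5 was highest for Has2 at 5.58 (5.01), Slc7a11 at 3.74 (2.53) and Tfpi2 at 4.57 (3.79). Vehicle replicate 6 was highest for Npy1r at 8.27 (7.72). Of the low values of replicate 3, those of Cxcl9, Psmb10 and Tap1 belong to interferon and antigen presentation genes, whose list levels by replicate are given with the other observations, and those of Mmp14, Sod2, Timp3 and the fibroblast list do not. The cause of these values was not tested.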

How the results depend on the processing

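The totals kept their size under 23 other fits: 2845 to 3282 probe sets rose and 2827 to 3314 fell across filters, normalizations, variance models, array weights, replicate blocks and arrays left out, and 3545 and 3464 did so over the whole table of 41345 probe sets. Leaving out 1 array gave 2892 to 3202 rises and 2879 to 3058 falls, and a limit of at least 1 log2 unit gave 826 and 865. Each fit shared 85.3% to 100% of the reported calls, all in the same direction. Same-numbered arrays correlated at 0.0471 to 0.197 in their deviations, and 4 of 6 correlated best with their own number; since not every pair lay above 0.1, the numbers were not taken as a pairing, although interferon, MHC and cholesterol levels followed them. With the replicate number as a fixed block 3066 rose and 3066 fell, and as a random block 3282 and 3246; under the fixed block interferon response calls went from 4 to 7 and Vcam1, Arntl and H2-T23 passed the threshold (adjusted p = 0.0121, 0.0392 and 0.0191). Of 283 named genes past the threshold, 7 lost it in at least 1 fit (Bhlhe41, Nos3, Il1rl2, Pdia3, Tap1, Tgfb2 and Tgfb3). Of those not past it, 7 passed in at least 1, namely Erg, Pecam1, Nfkbia, Vcam1, Arntl, Lyve1 and H2-T23. No named gene called in the reported or the other fit changed sign between them. Sign changes of genes called in neither were not counted. Erg passed without vehicle replicate 1 (-0.35, adjusted p = 0.0444) or DNFB replicate 3 (-0.36, adjusted p = 0.0255), and Erg, Pecam1 and Nfkbia passed under both filters on low values. Without DNFB replicates 3 and 5, an alternative chosen after seeing the data, calls of higher vasoactive genes went from 7 to 4. A filter at the 60th percentile left 4 neutrophil and 5 pan-leukocyte calls, since low genes dropped out. Signal near background limits folds of genes off in one group.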

Other observations

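Some further genes, mostly outside the lists, were picked after their values had been seen, so that no count of a group rests on them. Genes that handle vitamin A changed in both directions: Lrat, which esterifies retinol, fell by 1.99 ± 0.25 (adjusted p = 2.82e-05), Dhrs3, which reduces retinal, fell by 1.86 ± 0.23 (adjusted p = 2.50e-05), and, from the lists, the retinoid carrier Rbp7 fell by 2.37 ± 0.23 (adjusted p = 2.48e-06), Adh1 fell by 1.94 ± 0.19 (adjusted p = 3.18e-06) and the retinal dehydrogenase Aldh1a1 fell by 1.11 ± 0.20 (adjusted p = 5.69e-04). Cyp26b1, which degrades retinoic acid, rose by 0.74 ± 0.16 (adjusted p = 0.00236). The polyamine enzymes Odc1 and Srm rose by 1.83 ± 0.17 (adjusted p = 1.95e-06) and 1.89 ± 0.16 (adjusted p = 7.03e-07), the superoxide dismutases Sod2 and Sod3 by 2.03 ± 0.13 (adjusted p = 1.37e-07) and 2.24 ± 0.23 (adjusted p = 4.23e-06), and the metallothionein Mt2 by 1.89 ± 0.18 (adjusted p = 2.21e-06). Further ribosome assembly genes, Rpf2, Pno1 and Nol10, rose by 2.32, 2.11 and 2.16, and the phosphodiesterases of cyclic GMP Pde2a and Pde9a fell, with differences of -2.13 and -1.96.

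Lymphatic markers did not move one way: of 16, 4 rose and 5 fell, and 3 fell without DNFB replicates 3 and 5. Podoplanin, Pdpn, went from a vehicle mean of 7.43 to a DNFB mean of 9.92 and rose by 2.50 ± 0.19 (adjusted p = 3.18e-07), and the neurotensin gene Nts rose by 2.47 ± 0.26 (adjusted p = 5.02e-06). Lyve1, the hyaluronan receptor of lymphatic vessels, had a difference of 0.53 ± 0.21 (adjusted p = 0.0831), and passed the threshold without vehicle replicate 2. Other members went down. Sned1 stood at 7.48 to 8.23 in vehicle and 5.66 to 6.89 in DNFB arrays, and Gata2 at 8.43 to 8.60 and 7.54 to 7.91. Klhl4 stood at 6.49 to 6.83 and 5.14 to 6.28, also without overlap. The ranges of Prox1 overlapped, at 6.00 to 6.53 in vehicle and 5.29 to 6.14 in DNFB arrays.

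Levels of the interferon and MHC lists followed the replicate number across treatments. In vehicle arrays the mean interferon level was lowest in replicate 3, at 7.18, and highest in replicate 6, and in DNFB arrays the same replicates had 7.35 and 8.25. MHC class I gave 8.57 and 9.50 in vehicle and 8.61 and 9.53 in DNFB arrays, and MHC class II gave 3.81 and 6.16, and 4.16 and 5.39. H2-T23, a class I gene chosen here after its values had been seen, stood at 6.70 and 7.36 in vehicle replicates 4 and 6 and at 6.52 and 6.53 in the DNFB arrays of these numbers, against 4.25 to 5.00 and 3.29 to 4.45 in the others, and the treatments differed by -0.67 ± 0.65 (adjusted p = 0.53). Cholesterol synthesis genes were lowest in replicate 3 (6.42 and 6.47) and highest in replicate 5 (7.17 and 7.31) of both treatments. Skeletal muscle markers had mean levels of 6.06 and 5.79 in vehicle replicates 1 and 2 and of 5.59 and 5.51 in DNFB replicates 2 and 6, against 3.84 to 4.20 in the other arrays.

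The interferon type motif GAAA, any 2 bases, then GAAA, stood in the promoters of 10 of 22 interferon response genes with a sequence (45.5%), against 3.4% of all measured genes with one, although few members of that list were called.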
